A study of Mus musculus with 12 samples.

Results

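The somas of mouse hippocampal neurons were compared with and without proteasome inhibition, and the response was followed across all genes beyond the heat shock proteins. Of the 12 libraries sequenced, 6 came from somas and were compared here, 3 titled Ctrl soma and 3 titled MG132 soma, chosen by these titles. The cells were C57BL/6 primary hippocampal neurons from pups of postnatal day 0 or 1, kept for 17 or 18 days in culture. Cultures grew in Transwell inserts, cups with a porous floor that neurites cross and somas do not, so that the upper face is harvested as the soma fraction and holds every cell body present, those of non-neuronal cells included. MG132 somas had received MG132 at 10 μM for 7 h, and Ctrl somas the solvent DMSO. Polyadenylated RNA was sequenced, and the values are reads counted per gene.

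The proteasome is the barrel-shaped protease that degrades proteins tagged with ubiquitin, and MG132 blocks its catalytic sites. Cells that cannot clear such proteins are known to raise heat shock proteins through HSF1, new proteasome subunits through NRF1 (*Nfe2l1*), antioxidant enzymes through NRF2 (*Nfe2l2*) and amino acid genes through ATF4. The proteasome also removes short-lived regulators such as p53 and the inhibitor of NF-kB, so its block reaches many pathways outside protein folding.

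Short promoter sequences are shown first, from gene families for which a binding motif is textbook knowledge. RefSeq promoters (GRCm38.p6, 250 bases before to 50 after each start) were available for 11007 tested genes, and both strands were searched. The ATF4-type composite element was searched as TGATGNAAT, which stood in 0.527% of all these promoters. It stood in 3 of 13 of those of aminoacyl-tRNA synthetases and in 2 of 28 of those of ATF4 and CHOP stress genes. The latter were *Nupr1* and *Pycr1*, and *Pycr1* was not called. *Gars*, *Iars* and *Nupr1* had log2 fold changes of 1.48, 1.80 and 1.99, which were not among the largest. Windows of 30 bases follow for *Gars* (chr6:55037959-55037988, minus strand), *Iars* (chr13:49682125-49682154, minus strand) and *Nupr1* (chr7:126625563-126625592, plus strand), with the motif in capitals.
Gars: gcccggtgcaTGATGAAATagcgcagccag
Iars: cgtctggaggTGATGCAATactgacagtgc
Nupr1: aagccctgtcTGATGCAATctggccctttc

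The NF-kB element was searched as GGGA, any 2 bases and TTCC. It stood in 1.68% of all promoters, in 7 of 19 of those on the list of cytokines and NF-kB genes, in 1.97% of those of genes called higher and in 1.83% of those of genes called lower. The windows are from *Cxcl1* (chr5:90891164-90891193, plus strand), *Cxcl2* (chr5:90903792-90903821, plus strand), *Cxcl10* (chr5:92349029-92349058, minus strand) and, as a gene of the same list that was not called, *Nfkbia* (chr12:55492657-55492686, plus strand). The promoters of *Csf1*, *Il6* and *Nfkb2* also held the element, and these genes were not called either (log2 fold changes -0.07, 5.10 and 1.14). A match describes these letters only, and the genes in both sets were picked after their values were seen.
Cxcl1: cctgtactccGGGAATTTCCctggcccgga
Cxcl2: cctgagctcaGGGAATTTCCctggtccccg
Cxcl10: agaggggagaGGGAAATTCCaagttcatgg
Nfkbia: gtcaggcgcgGGGAATTTCCaagccagtca

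Ctrl soma libraries held 6799464 to 10052321 reads on genes (median 7717547) and MG132 soma libraries 4247610 to 18411436 (median 7965954). The most abundant gene took 12.4% to 24.97% of the reads of a soma library, and mitochondrial genes 9.78% to 17.1%. Levels are given as CPM, the counts-per-million unit after TMM scaling, always in the order of replicates 1, 2 and 3. The first principal component of the 6 libraries (55.4% of the variance) parted MG132 from Ctrl, and on the second (20.01%) MG132 replicate 2 stood at 68.1 against -54.7 and -34.8 for the other MG132 libraries. Heat shock protein families, as a check of the treatment labels, had 25 of 65 tested genes higher and 1 lower.

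Across 14185 tested genes, 1276 rose (9.00% of those tested) and 792 fell (5.58%), or 14.6% in either direction. A gene was called when its change exceeded 1.7-fold and edgeR, by quasi-likelihood with Benjamini-Hochberg adjustment, gave an adjusted p below 0.01. Every called gene had 1 direction in the 3 pairs of libraries of equal number, and for none did the groups overlap, which held for 23.2% of all tested genes upward and 22.7% downward. The median log2 fold change of all tested genes was -0.07, and their standard errors had a median of 0.36. A block for the replicate number gave 1666 genes higher (11.7%) and 1384 lower (9.76%), and DESeq2 called 1451 and 1476. Leaving out Ctrl replicate 1 reduced the genes called higher to 849. It reduced those called lower to 463, against 429 without MG132 replicate 1 and 517 without Ctrl replicate 2. In all 6 fits with a library left out, 724 of the genes called higher and 328 of those called lower kept their call. Of the called genes named here, *Col1a2*, *Dbp*, *Dlgap4*, *Eno1*, *Ereg*, *Ern1*, *Fosl1*, *Gabra4*, *Gabrb1*, *Gpr17*, *Gria3*, *Isg15*, *Mmp10*, *Nupr1*, *Pfkl*, *Pgd*, *Psmd9*, *Pvalb*, *Rps15a*, *Rsad2*, *Slc1a3*, *Slc30a1*, *Sox2*, *Syvn1*, *Trem2* and *Ubb* lost their call in 4 or more of these fits. The labels do not say that replicates were separate cultures, so the p-values measure the spread between these libraries.

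**Figure D1:**
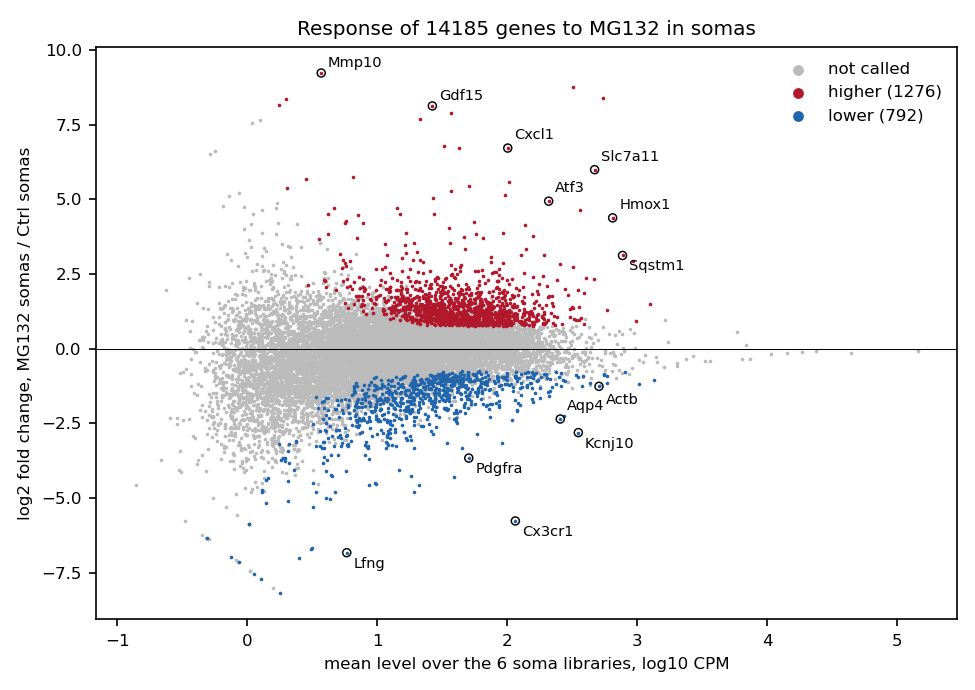
Log2 fold change of MG132 over Ctrl somas (vertical axis) against the mean level over the 6 soma libraries in log10 CPM (horizontal axis) for 14185 tested genes, with the 1276 called higher in red, the 792 called lower in blue and the rest in grey. Circled genes carry their names, with Mmp10 the highest and Lfng the lowest of them.

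**Figure D2:**
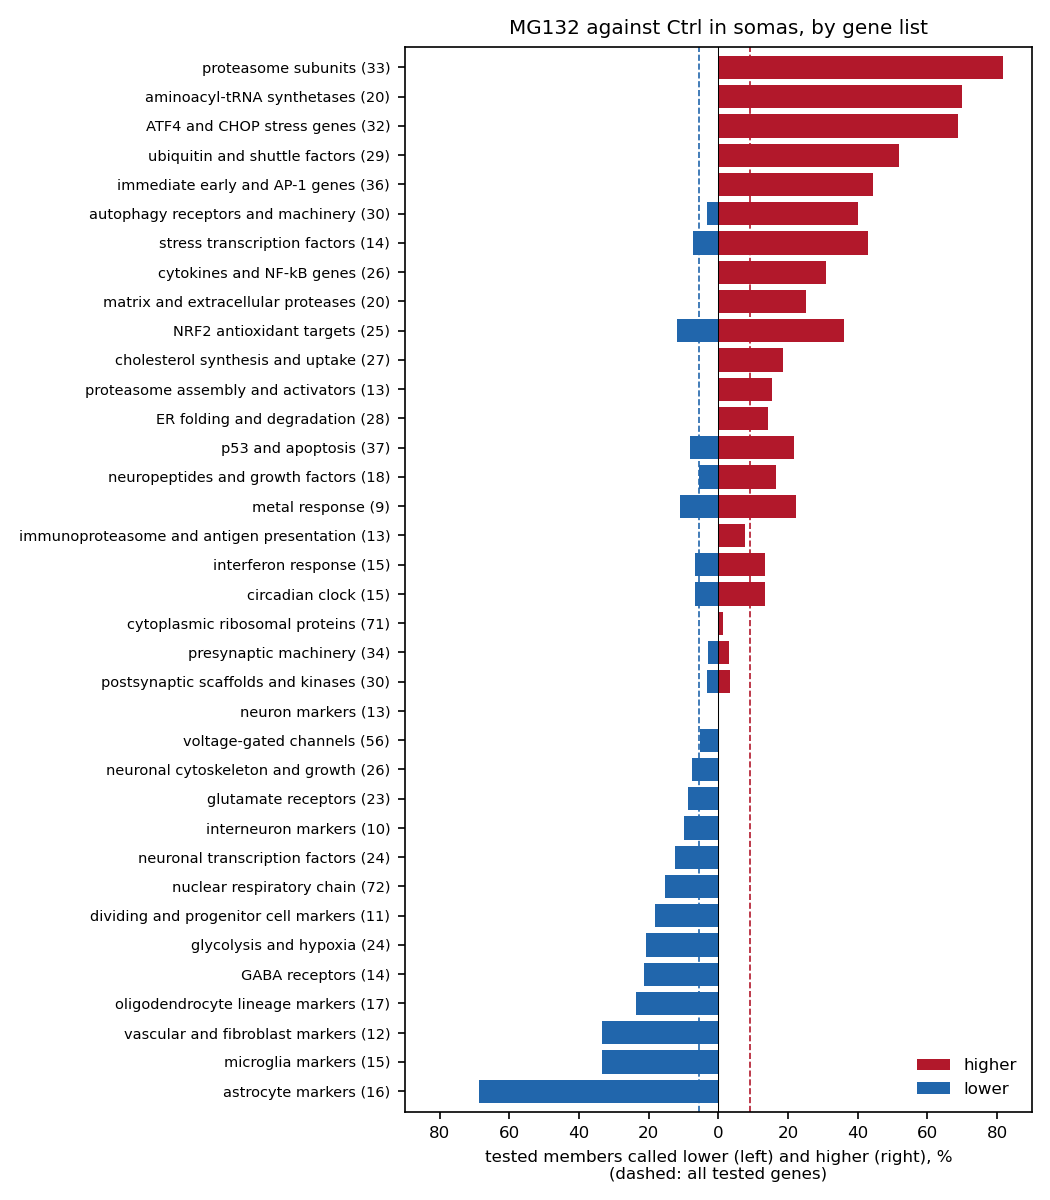
Share of tested members called higher (red, to the right) and lower (blue, to the left) in each of 36 gene lists, in percent, with the number of tested members in brackets and dashed lines at the share among all tested genes (9.00% higher, 5.58% lower). Proteasome subunits, tRNA synthetases and ATF4 genes stand at the top, and astrocyte, microglia and vascular markers at the bottom.

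Genes for amino acid uptake, amino acid synthesis and the ATF4 stress programme rose together. Of 32 tested genes on the list of ATF4 and CHOP stress genes, 22 were called higher and none lower, and their median log2 fold change was 2.03 against -0.07 for all tested genes. With the replicate block 25 were called higher, and on total counts without TMM factors 19 were. ATF4 is the transcription factor whose own translation rises when general translation is reduced, and CHOP (*Ddit3*) acts downstream of it.

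*Slc7a11*, the cystine importer that feeds glutathione synthesis, was counted on the list of NRF2 targets below and not on this list. It measured 13.9, 12.8 and 16.9 CPM in Ctrl somas and 853, 1080 and 844 CPM after MG132. Every MG132 library was far above every Ctrl library, with a log2 fold change of 5.99 ± 0.22 (SE, edgeR adjusted p = 6.73e-10). *Gdf15*, a secreted stress hormone, measured 0.414, 0 and 0 CPM in Ctrl somas and 44.8, 59.8 and 54.1 CPM after MG132, a log2 fold change of 8.13 ± 0.69 (SE, edgeR adjusted p = 2.66e-06). *Chac1*, which degrades glutathione, measured 1.24, 1.33 and 2.20 CPM in Ctrl somas and 62.7, 40.6 and 52.0 CPM after MG132. Both genes were close to absent in Ctrl somas, and *Chac1* rose by a log2 fold change of 5.04 (edgeR adjusted p = 3.01e-07). *Trib3*, a pseudokinase induced by ATF4 and CHOP, measured 0.828, 0.665 and 1.65 CPM against 24.0, 27.7 and 29.9 CPM. *Mthfd2*, a mitochondrial enzyme of one-carbon metabolism, measured 3.73, 5.76 and 2.87 CPM against 54.7, 70.5 and 75.8 CPM. Neither gene's groups came near each other, and their log2 fold changes were 4.70 and 4.03.

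*Atf4* itself measured 17.5, 21.9 and 22.7 CPM in Ctrl somas and 109, 86.4 and 136 CPM after MG132, a log2 fold change of 2.42 ± 0.22 (SE, edgeR adjusted p = 4.94e-06). *Ddit3* measured 9.38, 10.1 and 19.3 CPM against 61.8, 64.0 and 72.1 CPM, a log2 fold change of 2.36. The mRNAs of both transcription factors were therefore higher in each of the 3 MG132 libraries. Other members, chosen after their values were seen, were amino acid transporters and enzymes. *Slc7a1* had a log2 fold change of 3.76, *Slc7a5* 2.65, *Slc3a2* 2.30 and the asparagine synthetase gene *Asns* 2.46. *Pycr1*, whose promoter also held the ATF4-type letters, was not called (log2 fold change -0.77, edgeR adjusted p = 0.641).

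Aminoacyl-tRNA synthetases, which load amino acids onto their tRNAs, rose as a group. Of 20 tested cytoplasmic genes 14 were called higher and none lower, with a median of 1.37 against -0.07 for all tested genes, and their summed level was 873–992 CPM in the Ctrl group and 2621–2945 CPM in the MG132 group. *Aars* (alanine) measured 67.7, 82.9 and 78.0 CPM against 339, 307 and 339 CPM, a log2 fold change of 2.11 ± 0.16 (SE, edgeR adjusted p = 8.83e-07). *Cars* (cysteine) measured 19.6, 27.4 and 21.2 CPM against 128, 131 and 130 CPM, a log2 fold change of 2.52. The 3 MG132 libraries were nearly equal for both genes. *Rars* (arginine) and *Tars* (threonine) had log2 fold changes of 2.28 and 2.20, and *Gars* and *Iars*, whose promoter windows are shown above, 1.48 and 1.80. Among those not called were *Farsb* (phenylalanine) at 0.36 and *Dars* (aspartate) at -0.56. The number called stayed between 14 and 15 when single libraries were left out and was 10 on total counts.

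**Figure D3:**
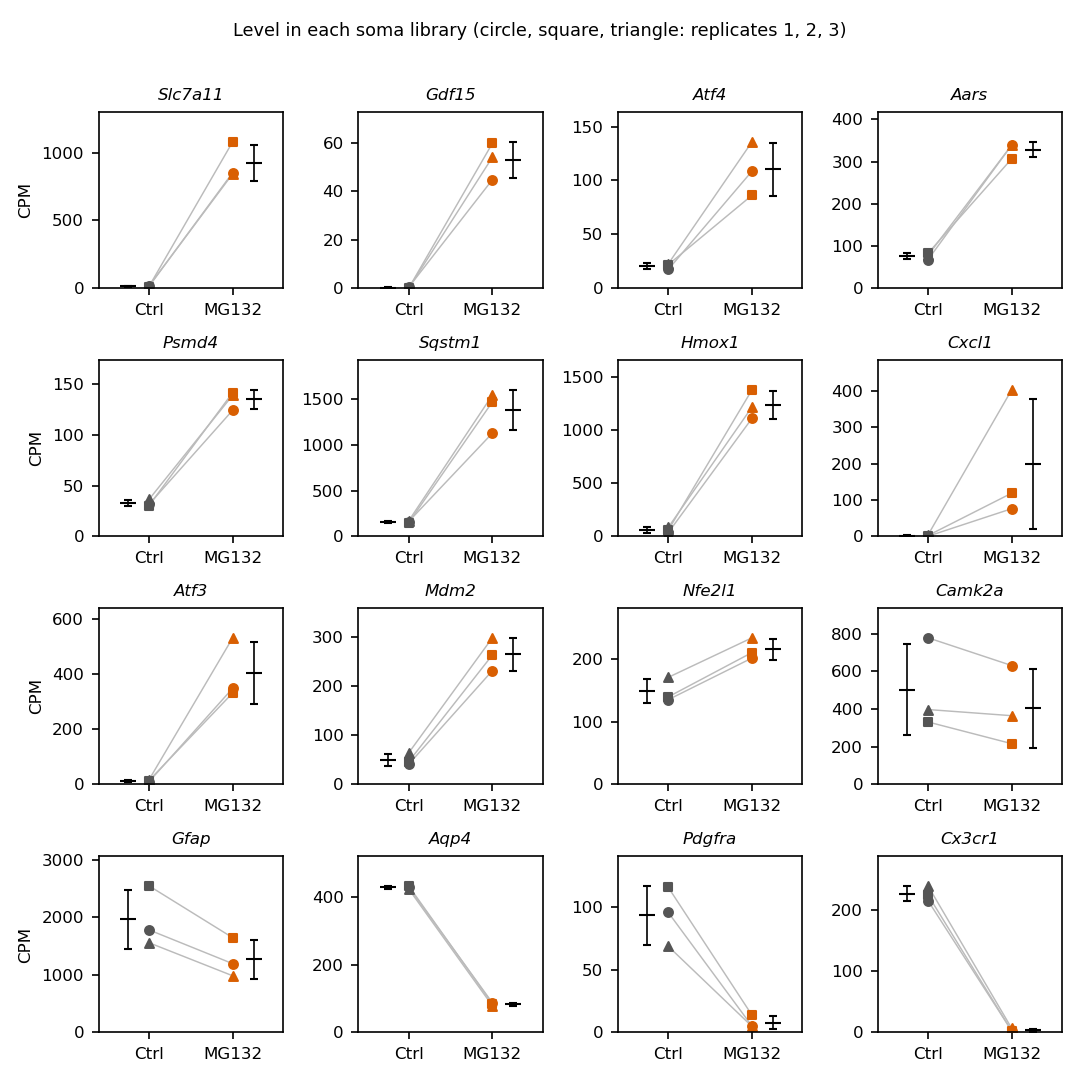
Level in CPM (vertical axis, from 0) of 16 genes in each Ctrl and MG132 soma library, with circles, squares and triangles for replicates 1, 2 and 3, grey lines joining the same replicate number, and the mean ± SD of the 3 libraries beside the points. Slc7a11, Gdf15 and Atf3 are near 0 in Ctrl somas, Camk2a and Gfap overlap between the groups, and Cx3cr1 falls close to 0 after MG132.

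Genes of the proteasome itself were higher after its inhibition. All 33 tested subunit genes had a positive log2 fold change, from 0.07 for *Sem1* to 2.05 for *Psmd4*, and 27 were called higher and none lower (median 1.22). Their summed level was 1213–1267 CPM in the Ctrl group and 2650–3055 CPM in the MG132 group, with no overlap. *Psmd4*, the ubiquitin receptor of the regulatory particle, measured 31.4, 30.2 and 36.3 CPM against 124, 141 and 139 CPM (standard error of the log2 fold change 0.18, edgeR adjusted p = 2.85e-06). The lid subunits *Psmd11*, *Psmd3* and *Psmd12* had log2 fold changes of 1.86, 1.83 and 1.81. On total counts 9 subunits were called, and between 19 and 23 when single libraries were left out.

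Proteasome helpers were less uniform. Of 13 tested assembly factors and activators, 2 were called higher, the activator PA200 gene *Psme4* (90.1, 90.4 and 107 CPM against 209, 213 and 222 CPM, log2 fold change 1.16) and the assembly chaperone gene *Psmd9* (1.08). The list's median was 0.22. Leaving out any Ctrl library or MG132 replicate 1 left 1 of the 2 called. Summed levels of immunoproteasome and antigen presentation genes, 479–720 CPM and 482–842 CPM, overlapped, and their median was -0.14. Of 13 tested, 1 was called higher (7.69%, against 9.00% of all tested genes). That member was the MHC class I gene *H2-Q4*, at 7.24, 13.6 and 12.01 CPM against 29.01, 41.0 and 47.7 CPM (log2 fold change 1.85). *H2-Q4* has near-identical neighbours in the MHC locus, so reads may be split among them.

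Ubiquitin genes and the factors that carry ubiquitinated proteins to the proteasome had 15 of 29 tested members called higher, none lower, and a median of 1.07. *Zfand2a*, encoding a proteasome-associated protein induced by arsenite, measured 21.6, 30.2 and 23.6 CPM in Ctrl somas against 238.1, 241.7 and 274.1 CPM after MG132 (log2 fold change 3.32, edgeR adjusted p = 1.61e-06). *Nploc4*, a cofactor of the segregase VCP, measured 32.5, 35.6 and 31.6 CPM against 147, 198 and 148 CPM, a log2 fold change of 2.30. The MG132 libraries lay well above all Ctrl libraries for both genes. Other called members were *Ddi2* (1.39), the protease that activates NRF1, and *Ubb* (1.62). Ubiquitin genes share near-identical coding repeats and processed copies, and reads that map to several places are dropped by default counting, so their levels are uncertain. On total counts 4 members of the list were called.

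Autophagy receptors and machinery, the alternative route by which aggregates are cleared, had 12 of 30 tested members higher, 1 lower and a median of 0.43. *Sqstm1*, the receptor p62 that binds ubiquitinated cargo, measured 161, 148 and 168 CPM in Ctrl somas and 1129, 1471 and 1545 CPM after MG132. Its log2 fold change was 3.12 (standard error 0.23, edgeR adjusted p = 6.66e-07), and the list's summed level rose from 1130–1188 to 2671–3241 CPM. *Atg14*, *Wipi2* and *Atg2a*, which act in the formation of the autophagosome, had log2 fold changes of 2.13, 1.89 and 1.81. The kinase gene *Ulk2* was called lower, with a log2 fold change of -0.79, but not on total counts or without Ctrl replicate 3, MG132 replicate 1 or MG132 replicate 2. On total counts 5 members were called higher.

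NRF2 target genes, which encode antioxidant and detoxifying enzymes, moved in both directions, with 9 of 25 tested members higher and 3 lower (median 0.73). *Slc7a11* (log2 fold change 5.99), described above, was among the 9. *Hmox1*, the heme oxygenase, measured 35.5, 58.8 and 84.2 CPM in Ctrl somas and 1110, 1378 and 1216 CPM after MG132, a log2 fold change of 4.38 ± 0.45 (SE, edgeR adjusted p = 1.49e-05). *Osgin1*, an oxidative stress gene, measured 1.66, 1.11 and 0.882 CPM against 26.4, 33.5 and 25.7 CPM, a log2 fold change of 4.50. The groups were far apart for both. *Srxn1* (sulfiredoxin) measured 67.8, 96.4 and 89.1 CPM against 508, 555 and 609 CPM, a log2 fold change of 2.72. *Txnrd1* (thioredoxin reductase) measured 91.5, 159 and 145 CPM against 490, 836 and 696 CPM, a log2 fold change of 2.35. For *Srxn1* and *Txnrd1* every MG132 library exceeded every Ctrl library by a wide margin. The members that fell were the glutathione transferase gene *Gstm1*, at 216, 205 and 150 CPM against 41.1, 63.2 and 35.1 CPM (log2 fold change -2.04), *G6pdx* (-1.22) and *Ephx1* (-1.10). The antioxidant response element, searched as TGAC, any 3 bases and GCA, which can overlap the AP-1 letters TGANTCA, stood in 3.19% of all promoters and in 2 of 19 on this list, those of *Txnrd1* and *Pgd*.

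Among stress transcription factors, 6 of 14 tested genes were higher and 1 lower (median 0.93). *Atf3*, an early stress factor of the ATF family, measured 9.45, 13.96 and 16.3 CPM against 348, 331 and 531 CPM, a log2 fold change of 4.94 ± 0.33 (SE, edgeR adjusted p = 3.02e-07). *Bach1*, the repressor of *Hmox1*, measured 21.5, 21.5 and 29.4 CPM against 96.9, 105 and 155 CPM, a log2 fold change of 2.30. The small MAF genes *Maff* and *Mafk*, partners of the NRF factors, had log2 fold changes of 2.41 and 1.94. The mRNAs of the master factors NRF1, NRF2 and HSF1 were not called. *Nfe2l1* measured 135, 139 and 171 CPM against 201, 210 and 234 CPM (log2 fold change 0.54, edgeR adjusted p = 0.0784). *Nfe2l2* measured 82.9, 111 and 85.0 CPM against 103, 134 and 125 CPM (0.37, edgeR adjusted p = 0.252), and its groups overlapped. *Hsf1* measured 8.55, 7.64 and 6.83 CPM against 19.3, 14.7 and 21.6 CPM (1.27, edgeR adjusted p = 0.0166), without overlap. It was called with the replicate block and by DESeq2, but not by the rule used here.

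Secreted inflammatory signals included some of the largest responses. Of 26 tested cytokines and NF-kB genes, 8 were called higher and none lower (median 1.72), and with the replicate block 14 were higher and 1 lower. *Cxcl1*, a neutrophil-attracting chemokine, measured 0.345, 2.22 and 3.53 CPM in Ctrl somas and 76.2, 119 and 404 CPM after MG132, a log2 fold change of 6.71 ± 0.95 (SE, edgeR adjusted p = 0.000157). *Cxcl2* measured 0.483, 0.332 and 0 CPM against 27.3, 50.1 and 143 CPM, a log2 fold change of 7.88 (edgeR adjusted p = 4.70e-05). Both chemokine genes carried the NF-kB letters shown above, and MG132 replicate 3 was the highest library for each. *Ccl2*, which attracts monocytes, measured 0.414, 0.554 and 1.54 CPM against 37.9, 59.8 and 157 CPM, a log2 fold change of 6.73. *Ccl7* measured 0.0690, 0 and 1.87 CPM against 32.7, 33.5 and 127 CPM, a log2 fold change of 6.77. The same MG132 library was highest for these as well. *Cxcl10* measured 1.66, 3.32 and 8.15 CPM against 101, 183 and 319 CPM (log2 fold change 5.56), and *Lif*, a cytokine of the interleukin 6 family, 2.21, 8.42 and 5.40 CPM against 145, 172 and 237.9 CPM (5.15). *Nfkbia*, the inhibitor of NF-kB, had a log2 fold change of 1.10 and was not called (edgeR adjusted p = 0.0519).

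Some of the other secreted factors had few reads in Ctrl somas. *Il19* measured 0, 0.775 and 0 CPM in Ctrl somas and 7.76, 10.9 and 19.3 CPM after MG132, a log2 fold change of 5.74. *Il1rn*, the interleukin 1 receptor antagonist, rested on 3 reads in Ctrl somas, and the ratio of its levels was 74.98 with a counting interval of 25.4 to 366. *Ptx3*, a secreted pattern recognition protein, measured 6.21, 17.2 and 61.0 CPM against 336, 604 and 1145 CPM, a log2 fold change of 4.64, and its Ctrl libraries spanned a wide range. *Ereg*, a growth factor of the EGF family, had no read in Ctrl somas and 0.462, 5.15 and 4.83 CPM in MG132 somas, at least 12.01-fold higher against 3 counts per library, and its call was lost in 5 of 6 fits with a library left out. *Hbegf*, of the same family, measured 12.3, 20.05 and 16.1 CPM against 152, 152 and 96.4 CPM, a log2 fold change of 3.05. On the list of neuropeptides and growth factors 3 of 18 tested genes were higher, the other being *Nptx2* (1.69), and 1 was lower, or 4 and 3 with the block. That gene was *Adcyap1*, the neuropeptide PACAP, at 20.9, 31.3 and 14.2 CPM against 2.22, 4.36 and 2.17 CPM (log2 fold change -2.99). Without Ctrl replicate 1 or Ctrl replicate 3, 1 of the 3 was called higher.

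Of 20 tested matrix genes and extracellular proteases 5 were called higher and none lower, with a median of 0.16. With the replicate block 7 were higher and 5 lower. *Mmp13*, a collagenase, measured 0, 0.665 and 0 CPM in Ctrl somas and 36.0, 72.9 and 18.0 CPM after MG132, a log2 fold change of 7.69. *Mmp3*, a stromelysin, measured 0.759, 10.5 and 5.84 CPM against 59.4, 177 and 80.7 CPM, a log2 fold change of 4.25. MG132 replicate 2 was the highest library for both. *Mmp10*, a further stromelysin and the gene with the largest fitted change under the naming rule, had no read in Ctrl somas and 3.51, 16.4 and 2.25 CPM in MG132 somas, at least 25.5-fold higher, and its call was lost in 4 of 6 fits with a library left out. The matrix proteins *Thbs1* and *Tnc* had log2 fold changes of 2.88 and 1.98.

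Interferon-responsive genes had 2 of 15 tested members higher and 1 lower (median -0.15). These were 13.3% and 6.67% of the list, against 9.00% and 5.58% of all tested genes. *Rsad2*, an antiviral enzyme, measured 8.14, 10.9 and 14.1 CPM against 17.8, 110 and 102 CPM, with MG132 replicate 1 close to the Ctrl range, and had a log2 fold change of 2.80. *Isg15* had a log2 fold change of 3.15, and *Ifitm3* fell by 1.57 on the log2 scale. The calls of *Rsad2* and *Isg15* were each lost in 5 of 6 fits with a library left out, and none of the list was called higher without any 1 Ctrl library, MG132 replicate 2 or MG132 replicate 3. With the block 2 members were higher and 4 lower.

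Immediate early and AP-1 genes, which neurons and glia switch on within minutes of a stimulus, had 16 of 36 tested members higher, none lower, and a median of 1.53. With the replicate block 22 were higher and 1 lower. *Jun* measured 51.7, 50.4 and 51.5 CPM in Ctrl somas and 204, 197 and 243.8 CPM after MG132, a log2 fold change of 2.07. *Gadd45b*, a growth arrest gene, measured 5.86, 7.75 and 8.82 CPM against 91.8, 72.9 and 156 CPM, a log2 fold change of 3.85. Both rose in every pair of libraries. *Fosl1* had no read in Ctrl somas and 4.53, 4.16 and 3.19 CPM in MG132 somas, at least 13.7-fold higher, and its call was lost in 6 of 6 fits with a library left out. *Gadd45g* and *Csrnp1* had log2 fold changes of 3.72 and 3.14. *Arc*, the activity-regulated synaptic gene, measured 6.90, 17.6 and 3.20 CPM against 98.6, 32.7 and 61.5 CPM, a log2 fold change of 2.81 that was lost in 3 of 6 such fits. *Fos* measured 12.8, 32.9 and 25.1 CPM against 41.6, 46.4 and 53.2 CPM (1.001, edgeR adjusted p = 0.0879). It was called with the block, but not by the rule used here. *Bdnf*, a neurotrophin gene induced by activity, measured 51.4, 153 and 37.6 CPM against 115, 87.7 and 60.6 CPM, with overlapping groups and a log2 fold change of 0.12 (edgeR adjusted p = 0.876).

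Genes of p53 and of apoptosis were mixed, with 8 of 37 tested members higher and 3 lower (median 0.53). *Mdm2*, the ubiquitin ligase that p53 induces against itself, measured 40.6, 46.0 and 63.7 CPM against 231, 263 and 297.5 CPM, a log2 fold change of 2.40 ± 0.23 (SE, edgeR adjusted p = 7.57e-06). *Pmaip1*, which encodes the death-promoting protein NOXA, measured 3.04, 5.65 and 4.19 CPM against 18.5, 32.5 and 48.4 CPM, a log2 fold change of 2.97. *Cdkn1a*, the cell cycle inhibitor p21, measured 41.8, 42.3 and 71.8 CPM against 175, 137 and 210 CPM, a log2 fold change of 1.74. The 3 genes were higher in every MG132 library. *Tnfrsf10b*, a death receptor, had a log2 fold change of 2.36. Lower were *Bmf*, a death-promoting BH3 gene, at 5.86, 3.43 and 15.1 CPM against 0.185, 0.990 and 0.901 CPM (log2 fold change -3.55), the survival gene *Bcl2* (-1.73) and *Sesn1* (-1.65), a p53 target. *Trp53* measured 13.5, 8.75 and 13.2 CPM against 19.8, 24.0 and 25.5 CPM (0.96, edgeR adjusted p = 0.0159). It was called with the block and by DESeq2, but not by the rule used here.

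Of 28 tested folding and degradation genes of the endoplasmic reticulum 4 were called higher and none lower, with a median of 0.05. The share called higher was 14.3%, against 9.00% of all tested genes. *Herpud1*, which acts in the degradation of proteins from this compartment, measured 16.8, 20.2 and 17.3 CPM against 75.1, 34.1 and 57.1 CPM, a log2 fold change of 1.62. The sensors *Ern1* (1.28) and *Atf6* (1.148) and the ligase gene *Syvn1* (0.94) were the others. *Xbp1*, the target of the *Ern1* product, measured 33.6, 47.4 and 42.8 CPM against 67.3, 60.8 and 76.2 CPM (0.73, edgeR adjusted p = 0.0165) and was not called. The count was 2 without Ctrl replicate 1, Ctrl replicate 2, MG132 replicate 1 or MG132 replicate 3, and 1 on total counts.

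Cholesterol synthesis and uptake had 5 of 27 tested genes higher and a median of 0.00. *Hsd17b7* and *Cyp51*, enzymes of the pathway, and *Insig1*, its regulator, had log2 fold changes of 1.84, 1.23 and 1.32. Leaving out 1 library gave 1 call (without Ctrl replicate 1), 2 (without MG132 replicate 3) or 3 (without Ctrl replicate 2, Ctrl replicate 3 or MG132 replicate 1), and total counts gave 1. Metal response genes had 2 of 9 higher, *Mtf1* (1.23) and the zinc exporter gene *Slc30a1* (0.86), and 1 lower, and with the block 4 were higher and 2 lower. *Mt3*, the brain metallothionein, measured 138, 96.1 and 83.9 CPM against 41.3, 37.8 and 44.9 CPM (log2 fold change -1.35). *Mt1* and *Mt2* had -0.65 (edgeR adjusted p = 0.0299) and 0.07 (edgeR adjusted p = 0.844) and were not called. Without any 1 Ctrl library or MG132 replicate 1 or 2, 1 metal gene was called higher. Clock genes had 2 of 15 higher, the repressors *Cry1* (2.10) and *Cry2* (1.42), and 1 lower, *Dbp*, at 12.3, 6.65 and 13.4 CPM against 0.462, 1.58 and 1.39 CPM (log2 fold change -3.25). The clock genes called were 13.3% and 6.67% of the list, against 9.00% and 5.58% of all tested genes. With the block 3 were higher and 2 lower. Without MG132 replicate 1, Ctrl replicate 2 or Ctrl replicate 3, 1 clock gene was called higher, and without Ctrl replicate 1 or 3 or MG132 replicate 1 or 3 none was called lower.

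The genes that fell furthest included markers of cells other than neurons. Of 16 tested astrocyte markers 11 were called lower and none higher (median -1.23), and all 16 were below 0. On total counts 6 of these markers were called lower. Their summed level was 6231–7552 CPM in the Ctrl group and 3160–4017 CPM in the MG132 group, and *Gjb6*, a gap junction gene, had no read in any MG132 soma library. *Aqp4*, the astrocyte water channel, measured 428, 432 and 423 CPM against 87.3, 84.4 and 78.6 CPM, a log2 fold change of -2.36 ± 0.16 (SE, edgeR adjusted p = 3.45e-07). *Slc1a2*, the main glutamate transporter of astrocytes, measured 1609, 1322 and 1354 CPM against 693, 592 and 591 CPM, a log2 fold change of -1.19. Both were lower in every MG132 library, whereas *Gfap*, the astrocyte intermediate filament, measured 1784, 2550 and 1560 CPM against 1196, 1647 and 985 CPM, with overlap (-0.62, edgeR adjusted p = 0.178). *Kcnj10*, a potassium channel gene of glia outside the list, measured 649, 666 and 534 CPM against 73.6, 128 and 62.2 CPM (-2.81). *Fgfr3*, *S100b* and *Slc4a4* had log2 fold changes of -1.99, -1.59 and -1.58.

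Microglia markers had 5 of 15 tested members lower, none higher, and a median of -1.08. *Cx3cr1*, the receptor by which microglia sense neuronal fractalkine, measured 216, 225 and 240 CPM against 2.49, 2.38 and 6.55 CPM, a log2 fold change of -5.77 ± 0.43 (SE, edgeR adjusted p = 6.66e-07). *Csf1r*, on whose signal microglia depend, measured 114, 113 and 134 CPM against 36.1, 45.2 and 48.7 CPM, a log2 fold change of -1.47. Both were lower in every MG132 library, and *Cx3cr1* was left near 0. *P2ry12* and *Trem2* had -2.57 and -1.146, the latter a call lost in 6 of 6 fits with a library left out and on total counts, and the leukocyte marker *Ptprc* (CD45) had -0.51 and was not called. The summed level was 1530–2096 CPM in the Ctrl group and 653–1181 CPM in the MG132 group. With the replicate block 12 members were called lower, and 3 without any 1 Ctrl library, MG132 replicate 1 or MG132 replicate 3.

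Of 17 tested markers of the oligodendrocyte lineage 4 were lower and none higher (median -1.38), and 13 were lower with the block. *Pdgfra*, the receptor that marks precursors, measured 95.6, 116 and 68.7 CPM against 4.99, 13.7 and 4.75 CPM, a log2 fold change of -3.67 ± 0.62 (SE, edgeR adjusted p = 0.000567). The others were *Gpr17* (-3.18), *Sox10* (-2.01) and *Olig1* (-1.60). The myelin gene *Mbp* (-0.29) was not called. *Mbp* measured 1282, 496 and 2843 CPM in Ctrl somas and 773, 207 and 2792 CPM after MG132, and followed the replicate number more than the treatment. The summed level ranged from 2376 to 8370 CPM without MG132 and from 939 to 7456 CPM with it. The count of lower markers was 2 without MG132 replicate 1 and 7 without MG132 replicate 3.

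Vascular and fibroblast markers had 4 of 12 tested members lower and a median of -1.61, and 7 were lower with the block. They were *Acta2* (-4.80), the pericyte gene *Pdgfrb* (-3.56) and the collagen genes *Col1a1* (-2.15) and *Col1a2* (-2.04). *Cldn5*, which defines brain endothelium and was too low to be tested, had no read in MG132 somas. Summed levels were 224–322 CPM and 84.4–116 CPM. Markers of dividing and progenitor cells had 2 of 11 lower, *Pax6*, at 18.1, 25.03 and 20.3 CPM against 2.31, 0.198 and 3.81 CPM (log2 fold change -3.12), and *Sox2* (-1.87), but the summed levels of 428–822 and 427–950 CPM overlapped. With the block 6 were lower and 1 higher. Without any 1 Ctrl library, MG132 replicate 1 or MG132 replicate 3, 1 marker of this list was called lower.

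Of 13 neuron markers none was called in either direction, their median was -0.31, and summed levels of 1526–2443 CPM without and 1133–2038 CPM with MG132 overlapped. With the block 1 of them, the cortical transcription factor gene *Neurod6*, was called lower. *Camk2a*, a kinase gene of excitatory neurons, measured 777, 331 and 397 CPM against 630, 216 and 364 CPM (log2 fold change -0.31, edgeR adjusted p = 0.698). Interneuron markers had 1 of 10 tested members lower, *Pvalb* (-1.63), a call lost in 6 of 6 fits with a library left out. Of the 17 listed, *Dlx6* had no read in MG132 somas, while 2 markers had none in Ctrl somas. In bulk RNA, fewer cells of a type and less RNA per cell cannot be told apart. The part of these marker shifts in the results for other genes was not tested.

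**Figure D4:**
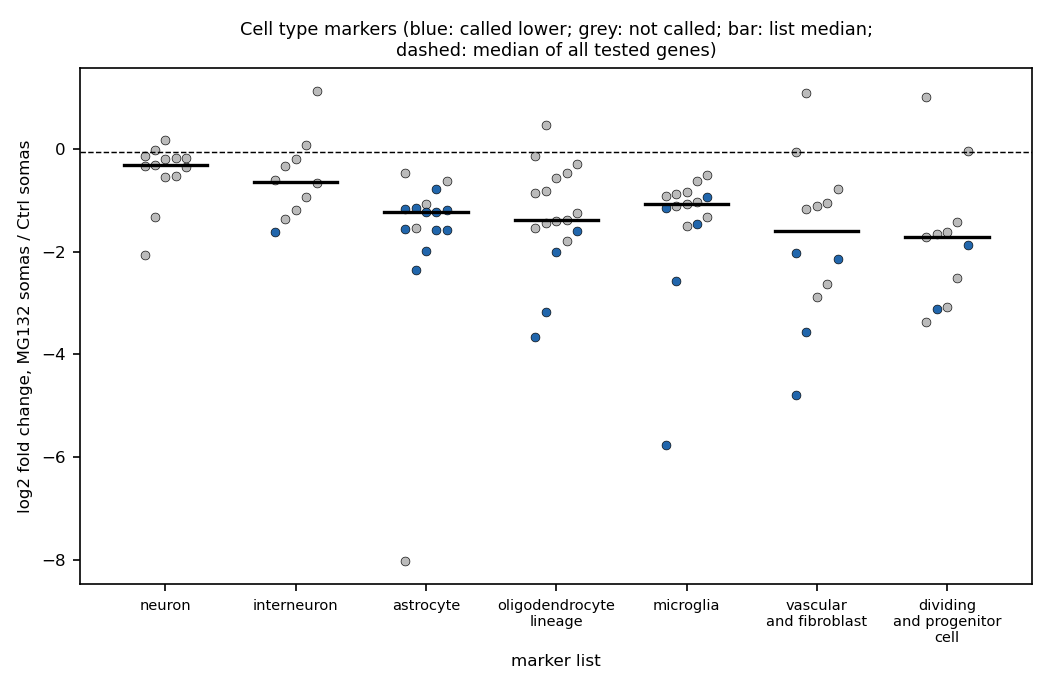
Log2 fold change of MG132 over Ctrl somas (vertical axis) for each tested marker of 7 cell type lists (horizontal axis), with genes called lower in blue, genes not called in grey, a bar at the list median and a dashed line at the median of all tested genes (-0.07). Medians lie at -0.31 for neuron markers and between -1.08 and -1.71 for astrocyte, oligodendrocyte lineage, microglia, vascular and dividing cell markers.

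Few genes of neuronal signalling were called. All 14 tested GABA receptor subunits were below 0 (median -0.90), and 3 were called lower, or 6 with the block. Among them *Gabra4* and *Gabrb1* had log2 fold changes of -1.23 and -1.16. The 3 calls were reduced to 0 on total counts, without Ctrl replicate 1, without MG132 replicate 2 and without MG132 replicate 3, and to 1 without Ctrl replicate 2. Glutamate receptors had 2 of 23 lower, *Grm3* (-2.21), a metabotropic receptor also found on astrocytes, and *Gria3* (-0.82), with a median of -0.58, 5 lower with the block and none on total counts. Without Ctrl replicate 1 or any 1 MG132 library, 1 was called.

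Of 56 tested voltage-gated channel genes 3 were lower and none higher (median -0.33), or 6 lower with the block. *Kcna2*, an axonal potassium channel gene, measured 125, 69.9 and 83.7 CPM against 41.6, 30.1 and 31.3 CPM, a log2 fold change of -1.43, and *Scn2b* and *Kcnn3* had -1.98 and -1.67. Presynaptic genes had 1 of 34 higher, *Syt4*, a synaptotagmin of dense-core vesicles, at 39.4, 68.9 and 50.5 CPM against 126, 103 and 206 CPM (1.46), and 1 lower, or 1 and 2 with the block. The call of *Syt4* was lost without Ctrl replicate 1, Ctrl replicate 3 or MG132 replicate 3. The lower call was lost on total counts and without Ctrl replicate 1 or MG132 replicate 3. Postsynaptic scaffolds and kinases had 1 of 30 higher, *Dlgap4* (0.85), and 1 lower, *Nlgn3* (-1.48), and 3 and 5 with the block. On total counts neither was called. Without any 1 Ctrl library or MG132 replicate 1 none of that list was called higher, and without Ctrl replicate 1 or MG132 replicate 3 none was called lower. The shares called on the voltage-gated channel, presynaptic and postsynaptic lists were below the 9.00% higher and 5.58% lower of all tested genes. For GABA and glutamate receptors the shares called lower, 21.4% and 8.70%, were above 5.58%.

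Neuronal transcription factors had 3 of 24 tested genes lower, none higher, and a median of -0.62, or 7 lower with the block and 5 without MG132 replicate 1. *Pou3f2*, a factor of cortical neurons and progenitors, measured 22.97, 27.1 and 15.8 CPM against 3.97, 2.58 and 2.62 CPM, a log2 fold change of -2.83. *Pou3f3* and *Etv1* had -1.88 and -2.15. Of 26 cytoskeletal and growth genes 2 were lower, the tubulin gene *Tubb2b*, at 66.4, 113 and 82.4 CPM against 18.3, 34.1 and 35.3 CPM (-1.58), and *Dpysl2* (-1.29), and 1 of them without MG132 replicate 1 or without Ctrl replicate 2. With the block 4 were lower and 1 higher. *Tubb2b* and *Tubb2a* are near-identical, so reads may be split between them.

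Of 24 tested glycolysis and hypoxia genes 22 were below 0 (median -0.73) and 5 were called lower, with 10 lower and 1 higher under the block. *Pdk1*, which restrains pyruvate entry into mitochondria, measured 50.6, 54.2 and 116 CPM against 13.1, 18.4 and 26.9 CPM, a log2 fold change of -1.90. *Pfkl*, *Eno1* and *Ldhb* had -1.46, -1.25 and -1.09. Single libraries decided part of this count, with 3 calls without Ctrl replicate 1 and 1 without Ctrl replicate 3, MG132 replicate 1 or MG132 replicate 2, and total counts gave 2. Nuclear genes of the respiratory chain had 11 of 72 lower, none higher, and 60 below 0 (median -0.41). *Ndufc1*, a subunit of complex I, measured 13.0, 11.6 and 12.5 CPM against 3.33, 4.36 and 6.47 CPM (-1.36), and *Atp5e*, of ATP synthase, 22.97, 19.4 and 20.1 CPM against 7.76, 5.35 and 11.2 CPM (-1.32). The 11 calls became 0 on total counts, 2 without Ctrl replicate 1, 5 without Ctrl replicate 3, and 5, 4 and 6 without MG132 replicates 1, 2 and 3. Ribosomal protein genes had 64 of 71 above 0 (median 0.60) but 1 called, *Rps15a* (log2 fold change 0.80), a call lost on total counts and in 5 of 6 fits with a library left out, and many of them have processed copies that blur their counts.

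By size of change, the genes that fell most under the naming rule were low in MG132 somas throughout. *Lfng*, a Notch-modifying glycosyltransferase, measured 11.9, 15.5 and 7.38 CPM in Ctrl somas and 0, 0 and 0.164 CPM after MG132, a log2 fold change of -6.84. *Neu4*, a sialidase, and *Slc6a13*, a GABA transporter of meninges and vessels, each rested on 2 reads in MG132 somas. The ratio of Ctrl to MG132 level was 116 for *Neu4* (counting interval 31.5 to 961) and 137 for *Slc6a13* (37.5 to 1140). *Apln*, the peptide apelin, measured 46.6, 10.2 and 55.8 CPM against 0.647, 0 and 2.46 CPM (-4.81), and *Islr*, an extracellular matrix gene, 41.2, 52.4 and 26.2 CPM against 1.76, 0.990 and 2.01 CPM (-4.56). *Tifab*, *Tmem100*, *Ccdc121*, *Kctd12b* and *Olfml1* had -5.31, -5.03, -4.99, -4.81 and -4.58.

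By absolute difference in CPM, the called genes that rose most outside the heat shock proteins were *Sqstm1*, *Hmox1*, *Slc7a11*, *Ptx3*, *Txnrd1* and *Dync1h1*. *Dync1h1*, the heavy chain of the dynein motor, measured 385, 341 and 305 CPM against 849, 967 and 680 CPM, a log2 fold change of 1.28. The called genes that fell most were *Scd2* (log2 fold change -1.04), a lipid desaturase, *Slc1a2*, *Kcnj10*, *Gpm6b* (-1.14), *Slc1a3* (-0.78) and *Actb*. On total counts *Dync1h1*, *Scd2*, *Gpm6b* and *Slc1a3* were not called, and *Slc1a3* at 1.72-fold was close to the threshold. *Actb*, the beta-actin gene often used as a reference, measured 723, 684 and 746 CPM in Ctrl somas and 273, 291 and 332 CPM after MG132, a log2 fold change of -1.27 ± 0.19 (SE, edgeR adjusted p = 0.000214).

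The layout of called genes was set beside that of all tested genes, as a description without a test. The median gene span was 25.1 kb for all tested genes, 28.0 kb for those higher and 28.1 kb for those lower. When genes were ordered by span and split into 10 equal bins, 4.80% of the shortest bin (up to 4.40 kb) and 3.36% of the longest (142 to 2390 kb) were called higher, against 12.3% in the eighth bin (50.5 to 79.1 kb). The share called lower was 7.09% in the longest bin and 5.73% in the shortest. Median Ctrl levels also differed, at 5.05 CPM in the shortest bin, 22.7 CPM in the eighth and 20.8 CPM in the longest. The part of level in these shares was not tested. The median number of exons was 9 for all tested genes, 11 for those higher and 8 for those lower. Of 370 long noncoding RNAs tested 13 were higher and 23 lower, and of 13391 protein-coding genes 1247 and 767. Over all tested genes 9.00% were higher and 5.58% lower. Promoters of genes called higher held more CpG dinucleotides in their 300 bases, with a median of 25 against 21 for all and 16 for genes called lower. The ETS letters CCGGAAGT stood in 8.49% of all promoters, in 14.9% of those higher and in 3.99% of those lower. The cyclic AMP element TGACGTCA stood in 3.50%, 5.11% and 1.498%, and the heat shock element (TTC, any 2 bases, GAA, any 2 bases, TTC) in 0.572%, 0.983% and 0.499%. Motifs rich in CpG are more likely to occur by composition in promoters with more CpG.

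**Figure D5:**
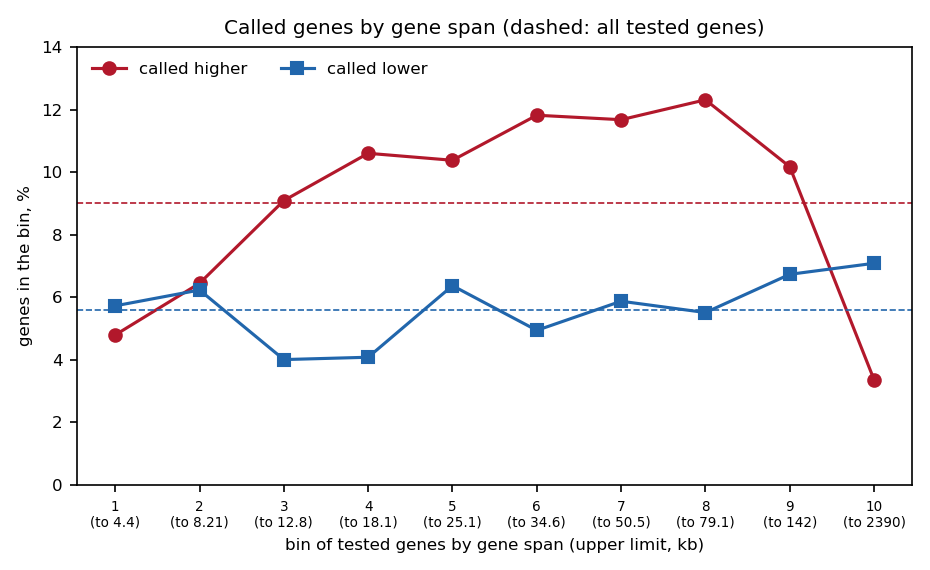
Share of tested genes called higher (red circles) and lower (blue squares), in percent, in 10 equal bins of genes ordered by gene span, with the upper limit of each bin in kb on the horizontal axis and dashed lines at the shares over all tested genes. The share called higher runs from 4.80% in the shortest bin to 12.3% in the eighth and 3.36% in the longest.

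The soma response was set beside that of neurites, the processes below the membrane of the same inserts, which were compared with their own Ctrl libraries. In neurites 1312 genes were higher and 772 lower by the same rule (14.7% in either direction). Of the genes higher in somas 893 were also called higher in neurites (70.0% of the soma list, 68.1% of the neurite list), and of those lower 406 (51.3% and 52.6%). No gene was called in opposite directions, and 1269 of the 1276 and 781 of the 792 had the same sign in neurites. The same count over all tested genes is not given here, so this agreement is not shown to be particular to called genes. The difference between the 2 responses was tested as an interaction, and no gene passed an adjusted p under 0.01 (0.00% of those tested, smallest edgeR adjusted p 0.328). At an unadjusted p under 0.05 there were 474 genes with a more positive response in neurites and 526 with a more negative one. DESeq2 called 29 (21 and 8), and edgeR with the replicate block 21 (14 and 7).

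Among those 21 genes, named after their values were seen, *H2-Q4* had a log2 fold change of 1.85 in somas and 0.22 in neurites (interaction edgeR adjusted p with the block 0.00347). The ubiquitin shuttle gene *Ubqln1* had 1.37 and 0.27 (0.00557). *Tubb2b* had -1.58 in somas and 0.16 in neurites (0.0051), and the progenitor gene *Fabp7* -1.67 and -0.02 (0.00517). These genes were thus moved more in somas. *Canx*, an endoplasmic reticulum chaperone gene, had -0.23 in somas and 0.80 in neurites (0.0089). *Atf5*, a factor related to ATF4, had 0.00 and -1.48 (0.00684). *Dars* had -0.56 and 0.76 (0.00557). By edgeR none of the 21 passed without the block.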

How the data were processed

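RNA was measured in 12 libraries, of which the 6 from somas (3 Ctrl, 3 MG132) were compared and the 6 from neurites entered the same model. The deposited values are raw counts per gene, 1 file per library. The authors trimmed single-end reads with Trimmomatic (version 0.38.0 in the submitters' notes), aligned them to mm10 with STAR and counted them per Entrez gene with featureCounts (2.0.1) at default settings. Defaults drop reads that map to several places, and a strand setting is not given in the sources used here, so near-identical copies and overlapping or antisense genes are uncertain. The submitters' notes also name DESeq2 (2.11.40.7).

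Symbols and gene models came from RefSeq and matched 25275 of 27179 listed genes (93.0%). Counts were fitted with edgeR 4.0.16 (R 4.3.3, limma 3.58.1) using TMM factors, filterByExpr and 4 group means over the 12 libraries, with the quasi-likelihood test and Benjamini-Hochberg adjustment over 14185 genes. Soma libraries held 4247610 to 18411436 reads, which limits genes at a few reads, and TMM factors of soma libraries ran from 1.18 to 1.44. Fold changes are log2 and CPM are TMM-scaled and not per length. Bounds against a group at 0 used 3 counts per library, and counting intervals cover counting error only. No 2 libraries were identical, and soma replicates differed by far more than sampling noise (chi-square per degree of freedom 24.0 to 62.2). The method was also tested on simulated data, where large changes were recovered more often and small ones were missed, so a gene that was not called is not shown to be unchanged.

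Same-numbered soma libraries deviated together from their group means (r across genes 0.246, 0.190 and 0.194), so the numbers were taken to pair the samples. Deviations sum to 0 within a group, so the negative values for different numbers (-0.164 to -0.0424) follow in part from the positive ones. The main fit held group means only and did not use this pairing. It also took soma and neurite libraries of equal number as independent. The replicate block, which uses the pairing, is given where it changed a call or moved a count by more than 1.5 times. The 36 gene lists (939 of 940 symbols matched) and the comparison itself were chosen with earlier results of these data known. Named genes were the 12 called genes with the largest change in each direction (at least 5 CPM in the higher group, outside heat shock proteins, same direction in 3 of 3 pairs). They also included the 6 called genes in each direction with the largest absolute difference in CPM. Up to 4 called members of each list with the largest change were added, with a fixed set of genes that define pathways. Other genes were chosen after their values were seen, among them *Slc7a5*, *Slc3a2*, *Farsb*, *Dars*, *Sem1*, *Pycr1*, *Nfkbia*, *Mbp*, *Ptprc* and the genes at 0. Alternatives were other scaling, DESeq2 1.42.0, other count filters, soma libraries only, the replicate block, other thresholds and each soma library left out. Results for some genes are not reported here.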

Additional observations from a re-analysis of the deposited data

How the results depend on the processing

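The number of genes called higher (1276) stayed within 1.5 times under DESeq2 size factors (1134), DESeq2 (1451), no count filter (1454), at least 10 counts in every soma library (1081), soma libraries only (1265) and an adjusted p under 0.01 with no fold threshold (1350). The number called lower (792) was 894, 1476, 1021, 821, 759 and 812 under the same settings. On total counts without TMM factors, 492 and 417 were called, and the cause was not tested. A log2 fold change above 1.7 left 299 and 345, and an adjusted p under 0.05 with no fold threshold gave 2203 and 1694. Leaving out single libraries gave 849 to 1077 higher and 429 to 582 lower, in fits that held fewer samples. The median log2 fold change of all genes was -0.10 on total counts and -0.13 with DESeq2 against -0.07.

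With the replicate block 1666 genes were higher and 1384 lower, and within the soma libraries alone, a setting added after the data were seen, 1661 and 1297. The block gave 21 genes whose response differed between neurites and somas (14 more positive and 7 more negative in neurites), DESeq2 gave 29 (21 and 8), and the other alternatives gave 0. It brought 3 of 155 results for named genes past the threshold, and changed no other of their calls.

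For named genes, 33 of 155 lost their call on total counts, and 19 to 38 when a single library was left out. Values near 0 changed sign. *Bdnf* (0.12) ranged from -0.20 (without Ctrl soma replicate 3) to 0.99 (without Ctrl soma replicate 2) and was -0.09 without Ctrl soma replicate 1 and -0.13 without MG132 soma replicate 1. *Camk2a* (-0.31) ranged from -0.80 (without MG132 soma replicate 1) to 0.17 (without Ctrl soma replicate 1). The Mt2 log2 fold change (0.07) ranged from -0.035 (without MG132 soma replicate 2) to 0.17 (without Ctrl soma replicate 2), and was -0.00307 with at least 10 counts in every soma library. None of these was called under any of these settings. Depth limits genes with a few reads, such as *Ereg* and *Fosl1*.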

Other observations

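Further gene families stood out in the soma comparison and were picked after their values were seen, so their counts are a description without a test. They are read beside 9.00% higher and 5.58% lower among all tested genes and a median log2 fold change of -0.07. Of 54 tested genes with symbols of Eif and a digit, 22 were called higher and 1 lower (median 0.71), and on total counts 6 were higher. These symbols cover translation initiation factors, which recruit ribosomes to mRNA, and other genes named after them. Factors of nonsense-mediated decay, the pathway that removes mRNAs with premature stop codons, had 6 of 10 called higher and none lower (median 0.92), and 2 on total counts. Host genes of small nucleolar RNAs, whose spliced RNAs are known targets of that decay, had 6 of 14 higher and 1 lower (median 1.24).

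Families called lower included SOX transcription factors, which act in glia and progenitors, with 7 of 14 lower and none higher (median -1.79), or 4 lower on total counts and, with the replicate block, 7 lower and 2 higher. Motile cilium genes, typical of ependymal cells, had 9 of 65 lower and none higher (median -1.05), and 3 on total counts. Protocadherins, the cell adhesion genes of neuronal identity, had 8 of 55 lower and none higher (median -1.09), or 9 and 1 with the block and 4 lower on total counts. Histone genes had 4 of 23 lower and none higher (median -1.75), and since most histone mRNAs lack a poly(A) tail and histone genes are near-identical copies, their counts in polyadenylated RNA are uncertain.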
